A study of Mus musculus with 48 samples.

Results

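The fatty acid binding proteins Fabp1, Fabp2, Fabp4 and Fabp5 were followed in mouse liver across genotype, diet and nutritional state. The 4 genes were chosen by their symbol on the array, as the members of the family whose signals were of interest once results from these arrays were known. All 5 probes that carry these symbols were taken, 2 of them for Fabp4 and 1 for each other gene. The 4 genes are members of a set of 20486 genes kept for analysis, out of 37074 gene names on the array. Because they were selected on results of these same arrays, their values and adjusted p are a description of these arrays and no independent evidence. The largest and least uniform pattern belonged to Fabp5. Its signal fell 5.49-fold with fasting in control mice on CTRL diet and rose 2.90-fold with fasting in mice lacking hepatocyte p110α on the same diet. Fabp2 was lower without hepatocyte p110α on both diets and in both states, Fabp4 was higher on high fat diet, with 3 of 4 comparisons passing the test, and Fabp1 differed by at most 1.17-fold between any 2 groups compared.

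Fatty acid binding proteins are small cytosolic proteins that bind long-chain fatty acids in the cavity of a β-barrel and carry them between membranes, organelles and enzymes. Fabp1 is the abundant liver form and takes bile acids, haem and acyl-CoA as well as fatty acids. Fabp2 is the intestinal form, best known from absorptive enterocytes, Fabp4 is the form of adipocytes, macrophages and capillary endothelium, and Fabp5 is the epidermal form, which macrophages and other cells also make. Genes of the family are well-known targets of the fatty acid sensing PPAR nuclear receptors, PPARα in hepatocytes and PPARγ in adipocytes. In liver, insulin favours lipid synthesis in the fed state, and fatty acids released from adipose tissue reach the hepatocyte during a fast.

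The study compared control mice with mice that lack p110α, a catalytic subunit of the phosphoinositide 3-kinase that relays the insulin signal, in hepatocytes. All mice were male and carried a floxed p110α allele. The p110αhep-/- mice (LKO) also carried a Cre transgene driven by the albumin promoter, which limits the deletion to hepatocytes, and the p110αhep+/+ mice (LWT) did not. From 12 weeks of age they received a control diet (CTRL) or a high fat diet (HFD, 60% of calories from fat) for 12 weeks. They were then fed ad libitum (FED) or fasted for 24 h (FASTED) and killed at Zeitgeber time 16, in the dark phase. The 8 groups were thus LWT CTRL FED, LWT CTRL FASTED, LWT HFD FED, LWT HFD FASTED, LKO CTRL FED, LKO CTRL FASTED, LKO HFD FED and LKO HFD FASTED. Each group had 6 one-colour arrays of total liver RNA, 48 in all, and the 6 slides each held 1 array of every group. Values are normalized log2 signals, so a difference of 1 is a 2-fold change, and levels of different probes cannot be set against each other.

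The Fabp1 probe lies on chromosome 6 (mm9, chr6:71154906-71154965), and the other members lie on chromosome 3. Fabp5 (chr3:10016185-10016244) and Fabp4 lie near each other there, and the 2 Fabp4 probes fall at chr3:10204452-10204511 and chr3:10208442-10208501 on the minus strand. The Fabp2 probe is at chr3:122602276-122602335. The Fabp1 probe runs from coding sequence across the stop codon (capitals), and the dimmer Fabp4 probe is open in 1 reading frame over all its 60 bases. They are shown up to the end of the coding part, since they say what each signal reads.

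Fabp1 probe: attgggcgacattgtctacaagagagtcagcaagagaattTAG
Fabp4 probe: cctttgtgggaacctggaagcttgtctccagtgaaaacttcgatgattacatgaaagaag

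The probes for Fabp2, Fabp5 and the brighter Fabp4 signal read 60 bases each and are not printed. The longest run of bases that any 2 of the 5 member probes share is 9. Promoter sequence from RefSeq (GRCm38.p6) was at hand for 2 of the 4 members, Fabp1 and Fabp2. The 250 bases before each start site are shown because these 2 genes are the members best known from cells that absorb or burn fatty acids and because PPARα target genes moved widely in these livers. Capitals mark matches, on either strand, to AGGNCA repeated directly after 1 spacer base (the form bound by PPAR with RXR), to GTTAAT (part of the site of HNF1) and to TATAAA (the TATA box). None of the 3 marked matches overlaps another.

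Fabp1 (chr6:71199629-71199878, plus strand): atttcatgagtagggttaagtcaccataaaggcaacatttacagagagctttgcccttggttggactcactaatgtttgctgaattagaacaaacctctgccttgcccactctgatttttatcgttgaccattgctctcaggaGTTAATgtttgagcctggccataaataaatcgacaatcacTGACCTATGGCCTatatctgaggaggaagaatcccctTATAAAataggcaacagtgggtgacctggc
Fabp2 (chr3:122894822-122895071, plus strand): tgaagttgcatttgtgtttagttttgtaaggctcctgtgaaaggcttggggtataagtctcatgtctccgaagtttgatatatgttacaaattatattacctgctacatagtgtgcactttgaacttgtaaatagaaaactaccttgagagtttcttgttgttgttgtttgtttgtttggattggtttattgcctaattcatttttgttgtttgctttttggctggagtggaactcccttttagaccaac

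The Fabp1 window held all 3 motifs. The direct repeat stood on the minus strand 67 to 55 bases before the start, GTTAAT 107 to 102 bases before it, and TATAAA 30 to 25 bases before it. Among 32851 promoter windows of the same 250 bases, 0.338% held the direct repeat, 6.43% held GTTAAT and 12.4% held TATAAA. The Fabp2 window held none of these letters. A match describes the sequence and is no evidence of binding.

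Between 52.3% and 59.3% of spots were well above background on each array, no spot was saturated, and the probe for Alb, the main plasma protein of hepatocytes, had group means of 18.88 to 18.91. All 5 member probes were well above background on 48 of 48 arrays. Pik3ca, which encodes p110α, was not lower in LKO mice (log2 difference 0.08 to 0.58, called higher in 3 of 4 comparisons). Whether its probe lies within the deleted part is not known here, so it does not check the deletion. By distance to group means over the 5000 most variable probes, 2 of 48 arrays were nearer to another group than to their own: LWT CTRL FED replicate 2 and LKO HFD FED replicate 3, both nearest to LKO CTRL FED. LKO CTRL FASTED replicates 5 and 6 stood apart from the other 4 arrays of their group in Fabp4 and Fabp2. Called results of the 4 members in groups that hold these arrays are given with all arrays and without the pair in question. For other listed genes, 4 of 95 called values were lost without LKO CTRL FASTED replicates 5 and 6 and 6 of 200 without the other pair, and 0 moved by over 1.5 times; of 288 list counts, 7 did. Left out in turn, 1 or more single arrays ended the call of 100 of 400 listed values and moved 8 of them by over 1.5 times.

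**Figure D1:**
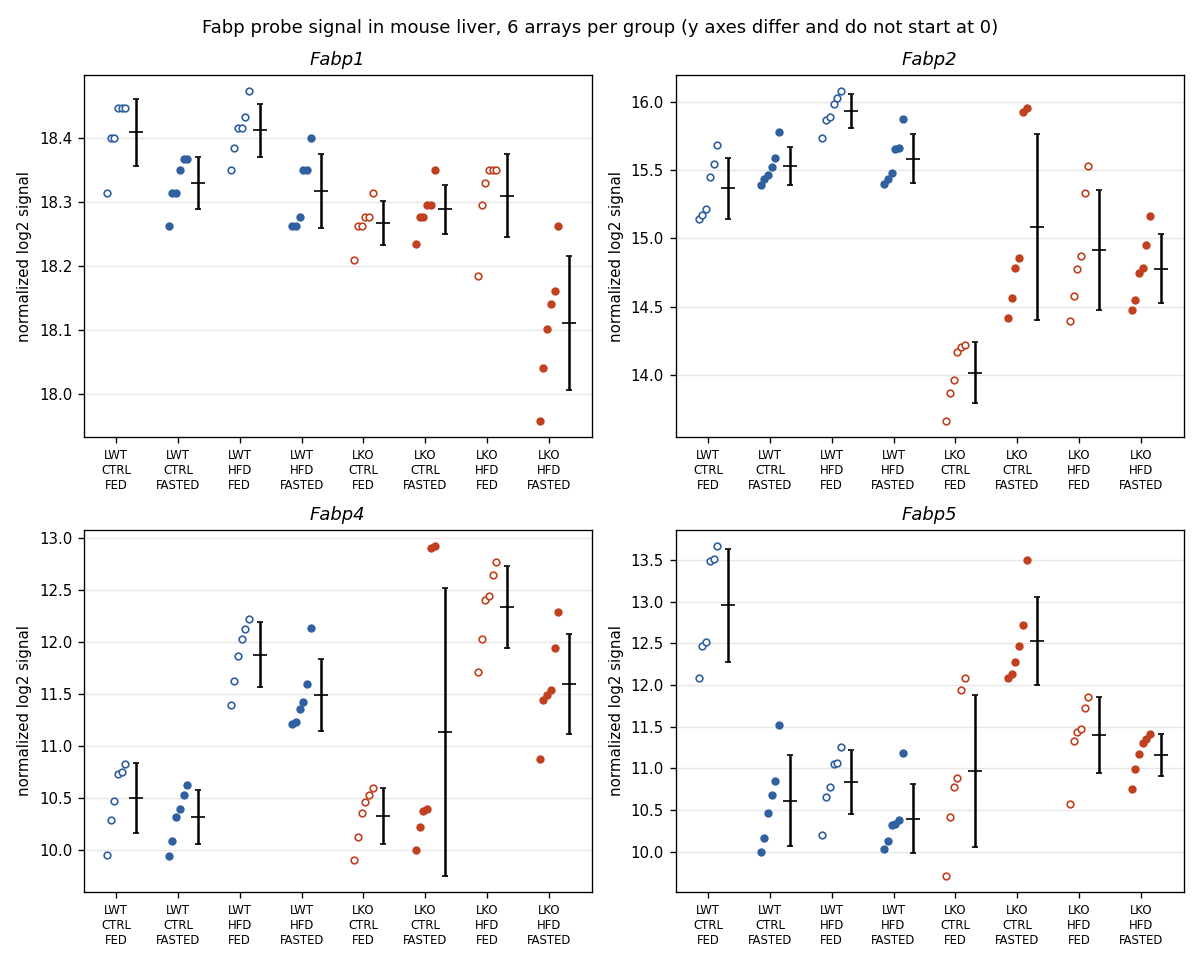
Normalized log2 signal (y axes, a separate scale for each gene) of the brightest probe of Fabp1, Fabp2, Fabp4 and Fabp5 in the 8 groups (x axes), 1 point per array, open for FED and filled for FASTED, blue for LWT and red for LKO; black marks are the mean ± SD of 6 arrays. Fabp5 is high in LWT CTRL FED (12.08 to 13.67) and LKO CTRL FASTED (12.09 to 13.50), and 2 arrays of LKO CTRL FASTED lie near 12.9 for Fabp4.

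Fabp1, the liver form, was among the brightest probes of the array. Its mean ranked 31 of 30793 probes, with unnormalized median signals of 259840 to 358640 against a highest signal of 589412 on any array. Levels lay between 17.96 and 18.47 over all 48 arrays. In LWT CTRL FED the lowest, median and highest values were 18.31, 18.42 and 18.45, and in LKO CTRL FED they were 18.21, 18.27 and 18.31, so that no array of the latter was above the lowest of the former. LKO HFD FASTED was the lowest group, with 17.96, 18.12 and 18.26. The log2 difference between LKO and LWT mice was -0.15 in CTRL FED (SE 0.04, limma adjusted p = 0.00284) and -0.21 in HFD FASTED (SE 0.04, adjusted p = 3.44e-05), and Fabp1 was higher in LKO mice on 0 of 6 slides each time. The CTRL FED value was -0.16 (adjusted p = 0.00147) without LWT CTRL FED replicate 2 and LKO HFD FED replicate 3. The differences in CTRL FASTED (-0.04) and HFD FED (-0.08, and 0.04 with median scaling) did not pass the test.

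With fasting, Fabp1 fell by 0.23 on the log2 scale in LKO HFD mice (SE 0.04, adjusted p = 3.70e-05), a 1.17-fold change that was -0.24 (adjusted p = 1.85e-05) without LKO HFD FED replicate 3 and LWT CTRL FED replicate 2. Those groups still overlapped, at 18.18 to 18.35 in FED and 17.96 to 18.26 in FASTED. In LWT HFD mice the difference was -0.09 (SE 0.04, adjusted p = 0.0464), a call that leaving out any 1 of 8 arrays ended. In LWT CTRL mice it was also -0.09 (adjusted p = 0.0573). On HFD, Fabp1 fell by 0.19 in LKO FASTED mice (SE 0.04, adjusted p = 0.000906), and the value was -0.19 (adjusted p = 0.00234) without LKO CTRL FASTED replicates 5 and 6. It was not called when only the arrays of the groups compared were fitted (-0.19, adjusted p = 0.0629). Quantile normalization leaves few ranks to a probe this bright: Fabp1 took only 35 distinct values on the 48 arrays. With the scanner's processed signal scaled to the 75th percentile in place of quantiles, the HFD FASTED genotype difference was -0.10 (adjusted p = 0.237) and the LWT HFD fasting difference -0.04 (adjusted p = 0.650). That scaling instead called a diet difference of -0.19 in LWT FED mice (adjusted p = 0.0209). Of the 5 differences called with quantiles, those in LKO HFD with fasting (-0.22), in LKO FASTED with diet (-0.24) and in CTRL FED with genotype (-0.21) kept their call there.

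Fabp2, the intestinal form, was lower in LKO than in LWT mice in all 4 genotype comparisons. In LWT CTRL FED the lowest, median and highest levels were 15.14, 15.33 and 15.69, and in LKO CTRL FED they were 13.66, 14.07 and 14.22. No array of those groups overlapped, and LKO was lower on 6 of 6 slides. The log2 difference was -1.37 (SE 0.17, 95% interval -1.72 to -1.02, adjusted p = 1.17e-07), or 2.58-fold. In HFD FED mice, LWT arrays gave 15.74, 15.94 and 16.08 and LKO arrays 14.39, 14.82 and 15.53. These groups did not overlap either, and the difference was -1.01 (SE 0.17, adjusted p = 1.37e-05). Without LWT CTRL FED replicate 2 and LKO HFD FED replicate 3, the CTRL FED and HFD FED differences were -1.40 and -0.99, both called.

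In the fasted state, Fabp2 in LWT HFD mice had the lowest, median and highest levels 15.40, 15.57 and 15.87, and in LKO HFD mice 14.48, 14.76 and 15.16. The difference of -0.81 (SE 0.18, adjusted p = 0.000413) again separated all arrays. LWT CTRL FASTED arrays gave 15.39, 15.49 and 15.78. LKO CTRL FASTED arrays gave 14.42, 14.57, 14.78, 14.85, 15.93 and 15.96, the last pair being replicates 6 and 5. The difference of -0.62 (SE 0.17, adjusted p = 0.00517) became -0.90 (SE 0.13, adjusted p = 2.60e-06) without that pair, and did not pass the test without array weights (-0.45, adjusted p = 0.0883).

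Fabp2 rose on HFD in the fed state in both genotypes. The log2 difference was 0.54 in LWT mice (SE 0.16, adjusted p = 0.0144) and 0.90 in LKO mice (SE 0.18, adjusted p = 0.000525), higher on 6 of 6 slides in each. Without the pair LWT CTRL FED replicate 2 and LKO HFD FED replicate 3 they were 0.51 (adjusted p = 0.0306) and 0.91 (adjusted p = 0.000561). In fasted mice the diet differences were 0.04 in LWT and -0.15 in LKO mice (0.13 without LKO CTRL FASTED replicates 5 and 6), and none of these passed the test. With fasting, Fabp2 rose in LKO CTRL mice (0.87, SE 0.17, adjusted p = 7.90e-05) and was not called in the other 3 comparisons. That rise was 0.59 (SE 0.14, adjusted p = 0.000707) without replicates 5 and 6 of LKO CTRL FASTED. The diet and fasting effects interacted in LKO mice (-1.04, SE 0.25, adjusted p = 0.00636) and the value was -0.76 without those arrays (adjusted p = 0.0126) and -1.06 without LWT CTRL FED replicate 2 and LKO HFD FED replicate 3 (adjusted p = 0.00648). The corresponding value in LWT mice was -0.50 (adjusted p = 0.286). When only the arrays of the groups compared were fitted, these calls changed places: the LWT term was called (-0.50, adjusted p = 0.0493) and the LKO term was not (-1.05, adjusted p = 0.0517). Whether the interaction differs between genotypes was not tested.

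None of the 8 enterocyte markers (Vil1, Cdh17, Sis, Lct, Alpi, Cdx1, Cdx2 and Slc5a1) passed the filter on dim probes. Vil1, Cdh17, Sis and Cdx2 were well above background on 0 of 48 arrays, and the others on 1 to 3. The Fabp2 probe, in contrast, was well above background on all 48 arrays.

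**Figure D2:**
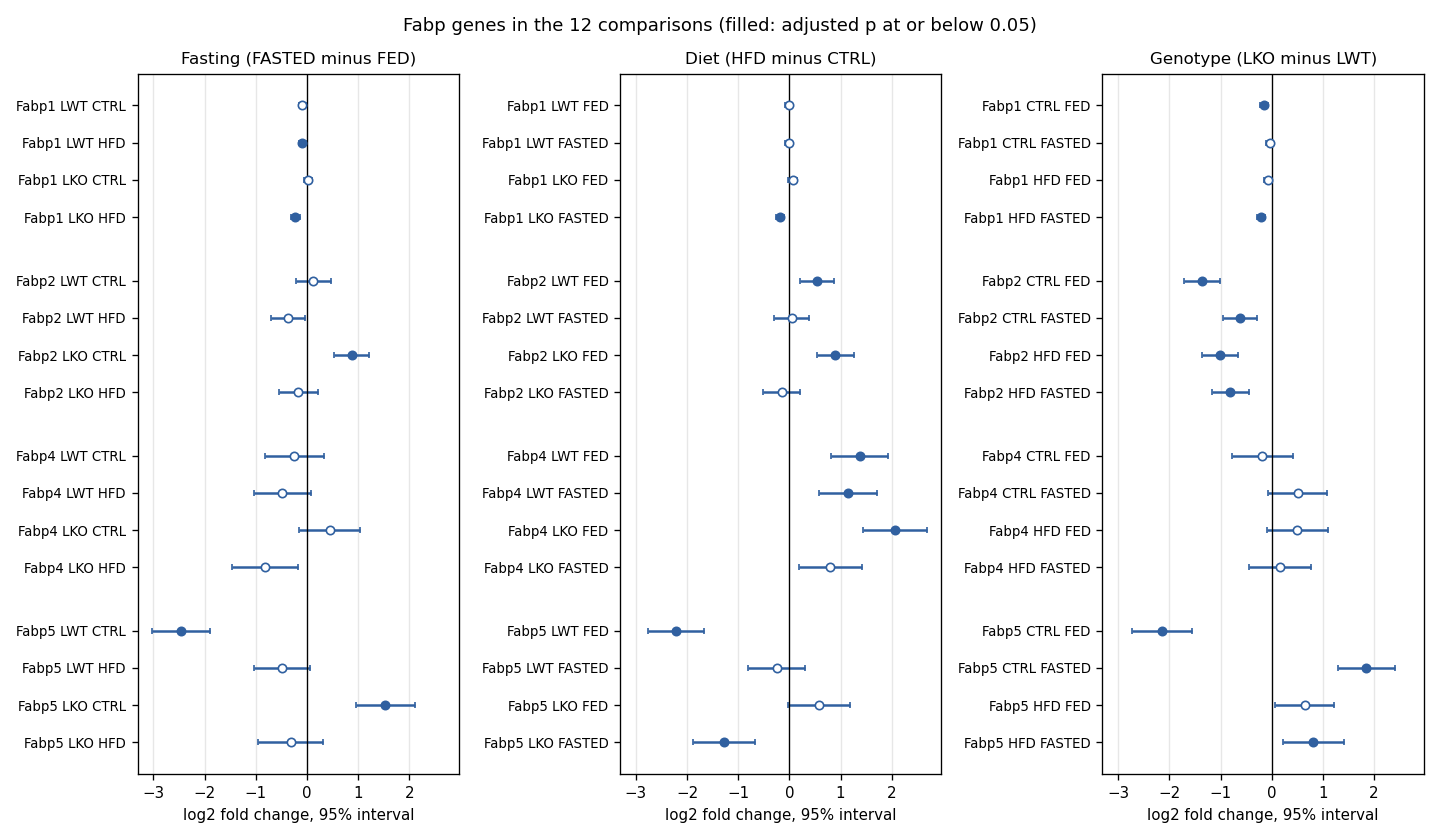
Log2 fold change (x axes) with its 95% interval for each gene in 12 comparisons (rows), from the limma fit of all 48 arrays; filled points have an adjusted p at or below 0.05. Fabp2 lies left of 0 in all 4 genotype comparisons, Fabp4 lies right of 0 in all 4 diet comparisons, and Fabp5 lies on opposite sides of 0 for fasting in LWT CTRL (-2.46) and LKO CTRL mice (1.53).

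Fabp4, the adipocyte and macrophage form, was called higher on HFD in 3 of the 4 diet comparisons. Among fed LWT mice, levels on CTRL diet were 9.95, 10.60 and 10.83 (lowest, median and highest) and on HFD 11.40, 11.95 and 12.22. The groups did not overlap, and the log2 difference was 1.37 (SE 0.28, 95% interval 0.81 to 1.94, adjusted p = 0.000322), or 2.59-fold. In fed LKO mice, levels were 9.90, 10.41 and 10.59 on CTRL diet and 11.71, 12.42 and 12.77 on HFD. That difference was 2.06 (SE 0.31, adjusted p = 5.90e-06), or 4.18-fold, again with no overlap. Without LWT CTRL FED replicate 2 and LKO HFD FED replicate 3 these differences were 1.30 (adjusted p = 0.00104) and 2.12 (adjusted p = 4.97e-06). The difference between these diet effects was 0.69 and did not pass the test (SE 0.42, adjusted p = 0.405).

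Fasted LWT mice had Fabp4 levels of 9.94, 10.35 and 10.62 on CTRL diet and 11.21, 11.39 and 12.13 on HFD, a difference of 1.15 (SE 0.28, adjusted p = 0.00429). In fasted LKO mice the CTRL arrays were 9.99, 10.22, 10.37, 10.39, 12.91 and 12.92, the last pair being replicates 5 and 6, and the HFD arrays were 10.87, 11.51 and 12.29. The 2 high arrays exceeded every HFD FASTED array of either genotype. With all arrays the diet difference was 0.80 (SE 0.30, adjusted p = 0.0856), and without that pair it was 1.34 (SE 0.19, adjusted p = 3.83e-06). These arrays came from different slides (4 and 2) and different washing batches.

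Genotype differences of Fabp4 lay between -0.19 and 0.50 and none of the 4 passed the test. The 95% interval was -0.78 to 0.41 in CTRL FED and -0.07 to 1.07 in CTRL FASTED, where the difference of 0.50 became -0.03 without replicates 5 and 6 of LKO CTRL FASTED. In HFD FED mice the difference was also 0.50 (SE 0.29, adjusted p = 0.200), and it was called without that pair (SE 0.17, adjusted p = 0.0237). The pair belongs to neither HFD FED group. The difference stayed at 0.50 and the SE fell, since the fit estimates the spread of a probe over all 8 groups together. None of the 4 fasting differences passed the test with all arrays. The nearest was LKO HFD, at -0.82 (SE 0.32, adjusted p = 0.0517). It was called without LKO HFD FED replicate 3 and LWT CTRL FED replicate 2 (-0.87, adjusted p = 0.0410) and without replicates 5 and 6 of LKO CTRL FASTED (-0.82, SE 0.19, adjusted p = 0.000950). By washing batch it was -1.40 in batch 1 and -0.17 in batch 2. The second Fabp4 probe gave -0.86 (adjusted p = 0.0395) for it. The 2 probes correlated at r = 0.99 over 48 arrays and their log2 differences were within 0.16 of each other in all 12 comparisons.

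Markers of other cell types that make Fabp4 were called in part in the diet comparisons. In bulk liver, fewer cells of a type and less RNA per cell cannot be told apart. Of 16 macrophage markers, 4 rose with HFD in LWT FED mice (beside 22.1% of all probes called), 6 rose and 1 fell in LWT FASTED mice (14.5%), 0 rose and 1 fell in LKO FED mice (11.3%, and 2 were called without LWT CTRL FED replicate 2 and LKO HFD FED replicate 3), and 0 were called in LKO FASTED mice (10%). Among them Trem2, a receptor of lipid-laden macrophages, rose by 0.93 in LWT FED and 1.07 in LWT FASTED mice, whereas Cd9, a tetraspanin, fell by 0.63 in LKO FED mice. Gpnmb was also called higher in LWT mice and was well above background on 18 of 48 arrays. The summed macrophage marker signal ranged over 39763 to 96320 in LWT CTRL FED, 37912 to 62302 in LWT HFD FED, 40669 to 65321 in LKO CTRL FED and 45682 to 83154 in LKO HFD FED.

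Beside the same shares of all probes, 4 of 12 endothelial markers rose with HFD in each of LWT FED, LKO FED and LKO FASTED mice, 1 of 12 fell in LKO FED mice, and in LWT FASTED mice 1 rose and 2 fell. Vwf, an endothelial clotting protein, rose by 0.53 to 0.74 in these 4 comparisons. The summed endothelial signal ranged over 23481 to 28076 in LWT CTRL FED and 23147 to 30161 in LWT HFD FED, and over 25908 to 32347 and 27056 to 31157 in the same LKO groups. Of the 6 adipocyte markers, Adipoq did not pass the filter. Of the other 5, 1 rose with HFD in LWT FED mice, 1 rose and 1 fell in LWT FASTED, 2 rose in LKO FED and 1 rose in LKO FASTED mice. Lep, the adipocyte hormone leptin, rose by 0.42 in LKO FED mice (adjusted p = 0.0343), and 48 of 48 arrays read it well above background. Without LKO HFD FED replicate 5, at 8.63 the highest of its group, the Lep difference was 0.19 (adjusted p = 0.282), and leaving out 2 other arrays also ended the call. Adrb3, an adrenergic receptor of fat cells, changed by -0.51 in LWT FASTED mice (adjusted p = 0.0487), a call that leaving out any 1 of 8 arrays ended. Plin1, an adipocyte lipid droplet protein, was well above background on 23 of 48 arrays and was called in none of the 4 diet comparisons. Cfd, the secreted protease adipsin, was called higher on HFD in all 4, by 1.76 in LWT FED and 2.69 in LWT FASTED mice, and lower in LKO than LWT mice, by -4.09 in HFD FED and -5.19 in HFD FASTED. Of the 5 adipocyte markers, 2 were higher and 1 lower in LKO mice in HFD FED (30.6% of all probes called). In HFD FASTED, 1 was higher and 1 lower (34.9%). Adrb3 was higher by 0.85 and 1.21 there, and Lep by 0.55 in HFD FED with LKO HFD FED replicate 5 included. The LWT FED call of Cfd was lost without LWT CTRL FED replicate 2 and LKO HFD FED replicate 3 (1.40, adjusted p = 0.0897) and without any 1 of 4 arrays. Since 3 of 6 LKO CTRL FED and 5 of 6 LKO CTRL FASTED arrays read Cfd well above background, no fold against those groups is given. The summed adipocyte signal ranged over 900.4 to 11119.8 in LWT CTRL FED, 9325 to 12865 in LWT HFD FED, 775 to 987 in LKO CTRL FED and 788 to 2844 in LKO HFD FED. Cfd had a higher mean level (9.90) than Adrb3 (8.83), Lep (7.28) or Plin1 (5.58) and the largest called differences. The sum therefore follows mainly Cfd and does not stand for the 5 markers together. The part of these cell types in the Fabp4 differences was not tested.

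Fabp5, the epidermal form, had the widest range of the members, from 9.71 to 13.67. In LWT CTRL FED the lowest, median and highest levels were 12.08, 13.003 and 13.67, and in LWT CTRL FASTED they were 9.99, 10.57 and 11.52. The groups did not overlap, and with fasting Fabp5 fell by 2.46 on the log2 scale (SE 0.28, 95% interval -3.02 to -1.89, adjusted p = 4.06e-09), or 5.49-fold. That value was -2.55 without LWT CTRL FED replicate 2 and LKO HFD FED replicate 3. In LKO CTRL FED levels were 9.71, 10.83 and 12.08, and in LKO CTRL FASTED 12.09, 12.37 and 13.50. Here Fabp5 rose with fasting by 1.53 (SE 0.29, 95% interval 0.96 to 2.11, adjusted p = 3.62e-05), or 2.90-fold, and the groups were again apart, though the nearest arrays lay at 12.08 and 12.09. The rise was 1.41 (adjusted p = 0.000221) without replicates 5 and 6 of LKO CTRL FASTED.

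The difference between these opposite fasting effects was 3.99 (SE 0.40, adjusted p = 5.56e-09), with 3.88 among the arrays of washing batch 1 and 3.68 in batch 2. Without replicates 5 and 6 of LKO CTRL FASTED it was 3.87 (adjusted p = 9.42e-09), and without LWT CTRL FED replicate 2 and LKO HFD FED replicate 3 it was 4.08 (adjusted p = 5.44e-09). On HFD, the fasting differences were -0.49 in LWT mice (SE 0.27, adjusted p = 0.188) and -0.32 in LKO mice (SE 0.31, adjusted p = 0.506). The difference between genotypes in the fasting effect on HFD was 0.17, with a 95% interval of -0.66 to 1.01.

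**Figure D3:**
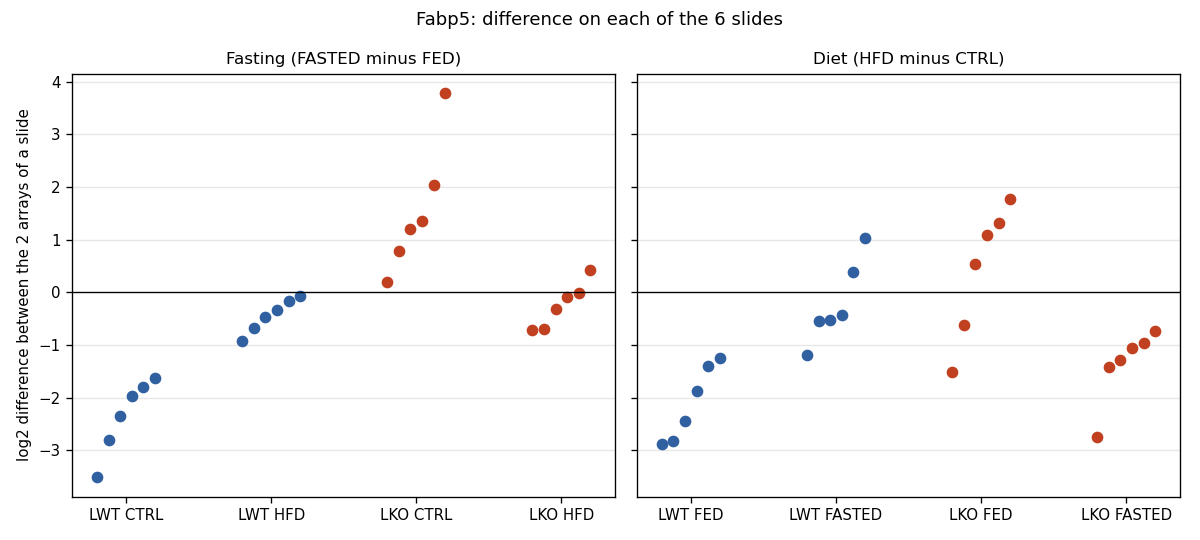
Fabp5 difference in normalized log2 signal (y axis) between the 2 arrays of the same slide, FASTED minus FED (left) and HFD minus CTRL (right), 1 point for each of 6 slides, blue for LWT and red for LKO mice (x axes name the genotype with diet or state). With fasting on CTRL diet, all 6 LWT slides lie between -3.52 and -1.62 and all 6 LKO slides between 0.20 and 3.79.

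Fabp5 was lower on HFD in the states in which it was high on CTRL diet. In LWT FED mice it fell by 2.21 (SE 0.27, adjusted p = 9.78e-08), to levels of 10.20, 10.92 and 11.26 with no overlap, and the value was -2.30 without LWT CTRL FED replicate 2 and LKO HFD FED replicate 3. In LKO FASTED mice it fell by 1.28 (SE 0.30, adjusted p = 0.00324), to 10.76, 11.24 and 11.41, also with no overlap, and the value was -1.16 (adjusted p = 0.0119) without LKO CTRL FASTED replicates 5 and 6. The diet differences in LWT FASTED (-0.24) and LKO FED mice (0.57) did not pass the test. By washing batch, the LKO FED value was 1.07 in batch 1 and -0.15 in batch 2. The diet effect in the fed state differed between genotypes by 2.79 (SE 0.41, adjusted p = 6.04e-05), or 2.94 without LWT CTRL FED replicate 2 and LKO HFD FED replicate 3.

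In genotype comparisons, Fabp5 was lower in LKO mice in CTRL FED (-2.14, SE 0.29, adjusted p = 3.89e-07, lower on 6 of 6 slides though the groups touch at 12.08) and higher in CTRL FASTED (1.85, SE 0.28, adjusted p = 2.37e-06). The former was -2.24 (adjusted p = 2.37e-07) without LWT CTRL FED replicate 2 and LKO HFD FED replicate 3, and the latter 1.73 (adjusted p = 1.73e-05) without LKO CTRL FASTED replicates 5 and 6. It was also higher in HFD FASTED (0.81, SE 0.30, adjusted p = 0.0292), where levels were 10.03, 10.32 and 11.19 in LWT and 10.76, 11.24 and 11.41 in LKO mice. That call was lost without any 1 of 4 arrays: LKO HFD FASTED replicates 1, 2 and 6 and LWT HFD FASTED replicate 3, with values from 0.73 to 0.93 over all arrays left out. In HFD FED mice, with levels of 10.57, 11.45 and 11.86 in LKO mice, the difference was 0.64 (SE 0.29, adjusted p = 0.0864). Diet and fasting interacted in both genotypes, by 1.97 in LWT (SE 0.39, adjusted p = 0.00298) and -1.85 in LKO mice (SE 0.42, adjusted p = 0.00349). The LWT value was 2.06 (adjusted p = 0.00219) without LWT CTRL FED replicate 2 and LKO HFD FED replicate 3, and the LKO value was -1.91 (adjusted p = 0.00235) without them and -1.73 (adjusted p = 0.00858) without LKO CTRL FASTED replicates 5 and 6.

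The 16 macrophage markers were also counted in each comparison where Fabp5 was called, beside the share of all probes called. With fasting on CTRL diet, 0 of 16 rose and 2 fell in LWT mice (30.9% of all probes), and 1 rose and 1 fell in LKO mice (33.9%). Itgam, an integrin of myeloid cells, fell in both (-0.87 and -0.50). With HFD, 4 rose and 0 fell in LWT FED mice (22.1%), and 0 were called in LKO FASTED mice (10%). In genotype comparisons on CTRL diet, 0 rose and 3 fell in FED (20.2%) and 3 rose and 0 fell in FASTED mice (23.1%). In HFD FASTED mice, 2 rose and 5 fell (34.9%), among them Trem2 at -1.50 and Mrc1, the macrophage mannose receptor, at 0.50. Clec4f, the Kupffer cell lectin, had group means of 12.43 to 12.97. Summed macrophage signals were 32506 to 47352 in LWT CTRL FASTED and 44593 to 57785 in LKO CTRL FASTED. Of the 12 endothelial markers, 3 were higher and 1 lower in LKO than LWT mice in CTRL FED, 6 and 0 in CTRL FASTED, 2 and 2 in HFD FED, and 9 and 0 in HFD FASTED. Their summed signal was 21313 to 27081 in LWT CTRL FASTED against 27507 to 30366 in LKO CTRL FASTED, and 20884 to 29424 in LWT HFD FASTED against 30276 to 33602 in LKO HFD FASTED. The median of this sum was also higher in LKO mice in CTRL FED (28378 against 25506), where Fabp5 was called lower. The part of either cell type in the Fabp5 differences was not tested.

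The order of group means differed between the members. Fabp1 and Fabp2 had their highest plain means in LWT HFD FED (18.41 and 15.93). For Fabp1, LWT CTRL FED was also at 18.41, and the fitted diet difference in LWT FED mice was -0.01. Fabp1 was lowest in LKO HFD FASTED (18.11) and Fabp2 in LKO CTRL FED (14.01). Fabp4 was highest in LKO HFD FED (12.33) and lowest in LWT CTRL FASTED (10.31), and Fabp5 was highest in LWT CTRL FED (12.95) and lowest in LWT HFD FASTED (10.39). In most steps of these orders neighbouring groups overlapped. The exceptions were Fabp2 between LKO HFD FASTED and LKO CTRL FED, and Fabp5 between LKO CTRL FASTED and LKO HFD FED. Group SDs were 0.03 to 0.10 for Fabp1, 0.12 to 0.68 for Fabp2, 0.26 to 1.39 for Fabp4 and 0.25 to 0.91 for Fabp5, the largest SD of Fabp2 and Fabp4 being that of LKO CTRL FASTED.

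Counted by comparison at an adjusted p of at most 0.05, the 4 members were called as often as follows, beside the share of all 30793 probes called. For fasting, 1 member was called in LWT CTRL (30.9% of all probes), 1 in LWT HFD (26.9%), 2 in LKO CTRL (33.9%) and 1 in LKO HFD (27.0%). For diet, 3 were called in LWT FED (22.1%), 1 in LWT FASTED (14.5%), 2 in LKO FED (11.3%) and 2 in LKO FASTED (10%). For genotype, 3 were called in CTRL FED (20.2%), 2 in CTRL FASTED (23.1%), 1 in HFD FED (30.6%) and 3 in HFD FASTED (34.9%). With 4 members chosen on these arrays, nothing is read from these counts.

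For the interactions, the share of all probes called was lower. Genotype by diet called 1 member in FED mice (2.70% of all probes) and 0 in FASTED mice (4.59%), and genotype by fasting called 1 on CTRL diet (3.68%) and 0 on HFD (3.21%). Diet by fasting called 1 in LWT mice (2.09%) and 3 in LKO mice (7.27%), namely Fabp1, Fabp2 and Fabp5. The Fabp1 value there was -0.25 (SE 0.06, adjusted p = 0.00249), -0.26 without LWT CTRL FED replicate 2 and LKO HFD FED replicate 3, and -0.25 without LKO CTRL FASTED replicates 5 and 6, with the call kept each time. Fabp4 gave -1.26 (adjusted p = 0.0657) with its brighter and -1.39 (adjusted p = 0.0398) with its dimmer probe.

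Among other carriers of the same fold, Fabp3 and Fabp7 passed the filter. Fabp7, the brain form, rose with fasting in LKO CTRL (0.57, adjusted p = 0.0165) and LKO HFD mice (0.65, adjusted p = 0.0150). These calls ended without any 1 of 2 and any 1 of 3 arrays, with values of 0.42 to 0.68 and 0.52 to 0.78. It was higher in LKO than LWT mice in CTRL FASTED (0.72, adjusted p = 0.00284) and HFD FASTED (0.66, adjusted p = 0.00754). Fabp3, the heart form, had dim group means of 5.56 to 6.31 and was called lower in LKO mice in HFD FASTED (-0.61, adjusted p = 0.0298). That call was lost without any 1 of 4 arrays, the value being -0.43 (adjusted p = 0.101) without LWT HFD FASTED replicate 1, at 7.51 the highest of its group. Fabp6, Fabp9, Fabp12, Pmp2, Rbp2, Rbp7 and Crabp1 did not pass.

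The shares of all probes called, given above for each comparison, are the background of the list counts that follow. Of 11 other intracellular lipid and acyl-CoA carriers, all measured, 0 rose and 4 fell in LKO relative to LWT mice in CTRL FED, 0 and 2 in CTRL FASTED, 1 and 4 in HFD FED, and 0 and 5 in HFD FASTED. Dbi, the acyl-CoA binding protein, had differences of -0.38 in CTRL FED, 0.07 in CTRL FASTED (adjusted p = 0.657), -0.65 in HFD FED and -1.08 in HFD FASTED. For Scp2, the sterol carrier, they were -0.21, -0.16, -0.25 and -0.27 in CTRL FED, CTRL FASTED, HFD FED and HFD FASTED, and any 1 of 3 arrays ended the CTRL FASTED call. With fasting, the Dbi differences were -0.69 in LWT CTRL, -0.60 in LWT HFD, -0.24 in LKO CTRL and -1.02 in LKO HFD mice, all called, though leaving out any 1 of 8 arrays ended the LKO CTRL call. Those of Stard4, a cholesterol carrier, were -1.44 to -0.87 in the same 4 comparisons. Medians over the list were -0.12 to -0.02 in the genotype comparisons, beside 0.01 to 0.03 over all probes.

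Genes of fatty acid uptake and activation, of which 12 of 13 passed the filter, changed in both directions. Cd36, the fatty acid translocase, rose on HFD by 1.11 in LWT FED, 1.05 in LWT FASTED, 2.36 in LKO FED and 1.94 in LKO FASTED mice. The LKO minus LWT difference was -2.61 in CTRL FED, -2.38 in CTRL FASTED, -1.35 in HFD FED and -1.49 in HFD FASTED. Lpl, lipoprotein lipase, was instead higher in LKO mice in those 4 comparisons, by 0.70, 1.05, 1.39 and 1.84. With HFD, 3 of the list rose and 1 fell in LWT FED mice and 6 rose and 2 fell in LKO FED mice.

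PPARα target genes rose with fasting on CTRL diet. Of 25 measured, 21 rose and 0 fell in LWT CTRL mice (median 0.70) and 24 rose and 0 fell in LKO CTRL mice (median 1.31), beside medians over all probes of -0.02 to 0.03 in the 12 comparisons. On HFD, 9 rose and 2 fell in LWT and 10 rose and 2 fell in LKO mice with fasting. Cyp4a14, a fatty acid ω-hydroxylase, rose by 3.69 in LWT CTRL and 3.83 in LKO CTRL mice, and Pdk4, a kinase that inhibits pyruvate dehydrogenase, rose by 4.13 in the latter. In the same comparisons the differences of Fabp1 were -0.09 and 0.02, those of Fabp2 0.13 and 0.87, those of Fabp4 -0.25 and 0.44 (-0.10 without replicates 5 and 6 of LKO CTRL FASTED), and those of Fabp5 -2.46 and 1.53. Only the Fabp2 value in LKO CTRL mice and both Fabp5 values passed the test.

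With HFD, 18 PPARα target genes rose and 0 fell in LWT FED mice and 21 rose and 0 fell in LKO FED mice. In FASTED mice the counts were 0 rises and 5 falls in LWT and 0 rises and 16 falls in LKO mice. Fgf21, a fasting hormone of the liver, had HFD differences of -1.22 and -1.75 in the fasted LWT and LKO mice. In LKO relative to LWT mice, 1 rose and 12 fell in CTRL FED, 6 rose and 1 fell in CTRL FASTED, 3 rose and 8 fell in HFD FED, and 2 rose and 9 fell in HFD FASTED. Vnn1, a pantetheinase, had a difference of -2.17 in CTRL FED. In the diet by fasting interaction of LKO mice, 23 of the 25 were called lower and 0 higher (median -1.07), beside 7.27% of all probes called in either direction.

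**Figure D4:**
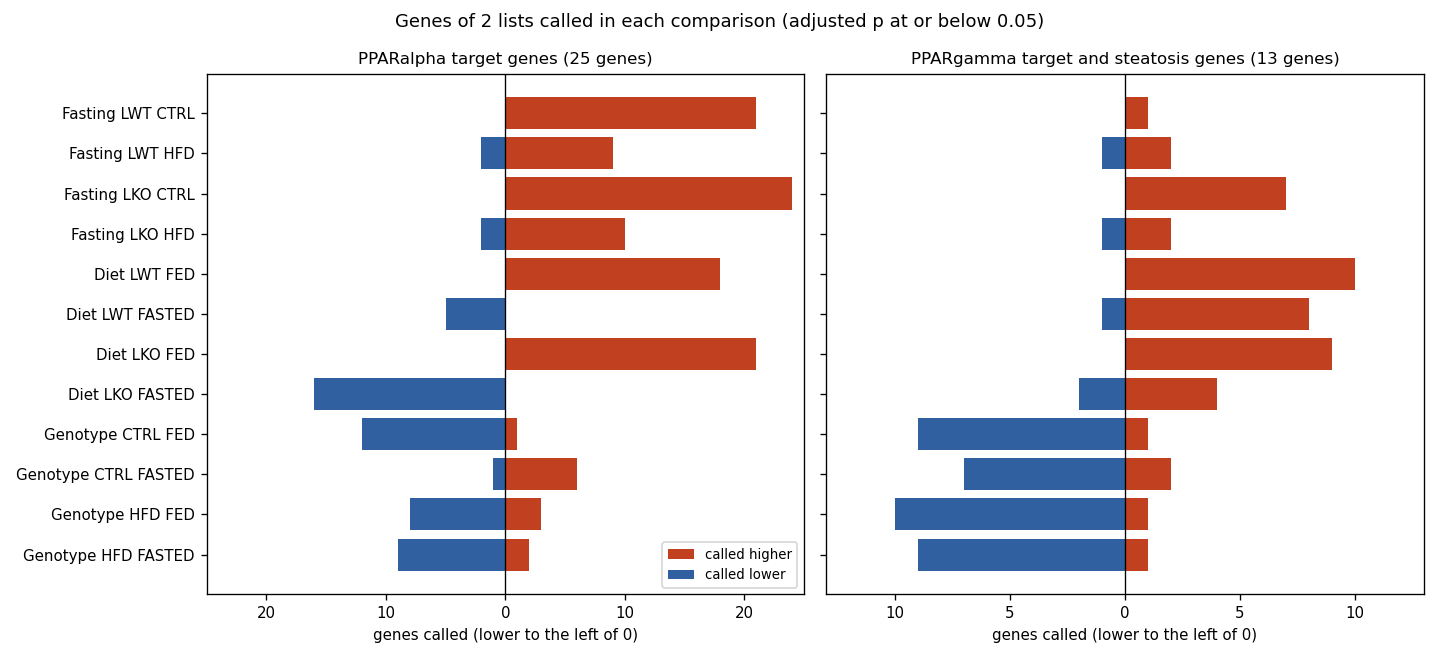
Number of genes called at an adjusted p at or below 0.05 (x axes, higher to the right and lower to the left of 0) in each of 12 comparisons (y axis), for 25 PPARα target genes (left) and 13 PPARγ target and steatosis genes (right). PPARα target genes are called higher with fasting on CTRL diet (21 and 24 genes) and with HFD in FED mice (18 and 21), and PPARγ target and steatosis genes are called lower in LKO mice (7 to 10).

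PPARγ target and steatosis genes, 13 in all, were mostly lower in LKO than LWT mice: 1 rose and 9 fell in CTRL FED, 2 and 7 in CTRL FASTED, 1 and 10 in HFD FED, and 1 and 9 in HFD FASTED. Cidec, a lipid droplet fusion protein, had differences of -3.87 in CTRL FED, -4.39 in HFD FED and -3.85 in HFD FASTED. In CTRL FASTED the Cidec difference was -0.36 and did not pass the test (adjusted p = 0.576), and with fasting Cidec rose by 4.09 in LKO CTRL mice. Cidea was also called lower, though its probe was well above background on only 1 to 5 of 6 arrays in each LKO group, and no fold is given. Pparg itself was lower in LKO mice in all 4 comparisons (-2.15, -1.80, -1.55 and -1.47) and higher on HFD in all 4 diet comparisons, by 0.73, 0.82, 1.33 and 1.15. With HFD, 10 genes of the list rose and 0 fell in LWT FED mice, 8 and 1 in LWT FASTED, 9 and 0 in LKO FED, and 4 and 2 in LKO FASTED. Fabp4, itself a known PPARγ target, shared the higher values on HFD, while its genotype differences of -0.19, 0.50, 0.50 and 0.16 did not pass the test.

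Nuclear receptors and lipid-sensing factors changed mostly with fasting. Of 16, 6 rose and 5 fell in LWT CTRL mice and 6 rose and 4 fell in LKO CTRL mice. Ppara rose by 0.66 and 0.78 in these comparisons, and Srebf1, which drives lipogenic genes, changed by -2.83 and -2.61. In LKO relative to LWT mice in CTRL FED, Srebf1 differed by -0.70 (not called without LKO CTRL FED replicate 3) and Rxrg, a retinoid X receptor, by -0.58. Of 10 hepatocyte markers, 0 to 4 rose and 0 or 1 fell in any of the 12 comparisons, with medians of -0.01 to 0.08. Of the other cell types, 3 or 4 of 5 cholangiocyte markers were lower in LKO mice in each genotype comparison, and of 7 stellate cell markers 4 rose with HFD in LWT FED and 3 in LWT FASTED mice. Among the cholangiocyte markers, Epcam was well above background on 18 of 48 arrays, Krt7 on 28 and Krt19 on 45.

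Over the 48 arrays, the genes whose brightest probe was most like each member by Pearson's r, among 20458, are given as a description; all points share the same groups. For Fabp1 they were Slco2b1 (r = 0.83), Dbi (0.82), Rxrg (0.81), N6amt2 (0.81) and Nudt1 (0.80). For Fabp2 they were Atp9a (r = 0.94), Apoa4 (0.89), Sprr1a (0.89) and an unnamed long noncoding transcript probe (0.89). Deviations from group means alone gave r = 0.75 for Atp9a and 0.84 for Apoa4, an apolipoprotein of enterocytes and liver. These values include the pair of LKO CTRL FASTED arrays that stood apart from their group in Fabp2. How far the values rest on that pair was not tested.

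For Fabp4 the most similar were Vstm4 (r = 0.80), Ackr2 (0.78), Olfm1 (0.76), Mpp1 (0.75) and Tnfrsf1a (0.75). For Fabp5, 2 probes without a gene symbol came first (r = 0.997 both), and 1 of these shares a run of 50 bases with the 60-base Fabp5 probe, so it may read the same RNA. Then came a noncoding transcript probe (0.93), Samm50 (0.70) and a further noncoding transcript probe (0.69). RefSeq also lists a pseudogene, Fabp5l2, and whether the Fabp5 probe reads it was not tested. Between members, r over the 48 arrays was at most 0.46 (Fabp1 with Fabp2). Within groups it was 0.67 for Fabp2 with Fabp4, a value that includes replicates 5 and 6 of LKO CTRL FASTED.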

How the data were processed

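Total liver RNA, 1 array per mouse, was hybridised to Agilent 1-colour arrays. The authors deposited scanner output that gives each spot an intensity, extracted with Feature Extraction 10.10.1.1 and not yet normalized. They also deposited log2 values of 32437 probes, which the authors had filtered, corrected for the washing bath and quantile normalized. The latter served as an alternative.

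Median spot intensity was taken to log2 without outlier spots, spots of a probe were averaged, and probes well above background on at least 5 of 6 arrays of a group were kept (30793 of 56605). The washing batch was removed with groups protected, and arrays were quantile normalized. All 48 arrays were fitted with 8 group means and array weights (0.35 to 1.71) in limma 3.58.1 under R 4.3.3, for 12 comparisons and 6 interactions. A call is a Benjamini-Hochberg adjusted p of at most 0.05 over all kept probes. Weighted differences depart slightly from differences of plain means. The fit was tested on simulated data. The brightest probe stands for a gene.

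Beside the members, the text names Pik3ca, the kept genes of the same fold, defining cell type markers, the 5 genes most correlated with each member and, of each list, at most 3 called genes with the largest rise and 3 with the largest fall. Some genes that this rule names are not reported here. The Scp2 value in HFD FASTED and the Dbi and Cidec values in CTRL FASTED were added after they were seen. Members and lists were chosen with earlier results of these data known. Alternatives were other background corrections, scalings, filters, batch terms, weights, sets of arrays and probes. The number of arrays limits the precision.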

Additional observations from a re-analysis of the deposited data

Results flagged for a closer look

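In 3 of 40 sets of 6 arrays, 1 array lay far from the other 5 by Dixon's criterion, which chance gives in about 1 of 20 sets. Fabp1 was 18.31 in LWT CTRL FED replicate 2, below the other 5 arrays, and 18.18 in LKO HFD FED replicate 3, also below the others. Fabp5 was 11.19 in LWT HFD FASTED replicate 1, above the others. The first 2 arrays are those nearer to the mean of another group over the most variable probes.

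By the interaction terms of the limma fit, 6 of 24 effects differed between groups, beside 2.09% to 7.27% of all probes called in these 6 interactions; nothing is read from the count, since the members were chosen on these arrays. For Fabp5, the diet effect in FED mice differed between genotypes by 2.79 (adjusted p = 6.04e-05) and the fasting effect on CTRL diet by 3.99 (adjusted p = 5.56e-09). The fasting effect on Fabp5 differed between diets by 1.97 in LWT (adjusted p = 0.00298) and -1.85 in LKO mice (adjusted p = 0.00349). In LKO mice it also differed between diets for Fabp1, by -0.25 (adjusted p = 0.00249), and Fabp2, by -1.04 (adjusted p = 0.00636).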

How the results depend on the processing

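None of the 72 member values (12 comparisons and 6 interactions of 4 genes) reversed a call, and 62 to 71 kept their side of the threshold under each alternative run on all of them. The 2 alternatives that leave out a pair of arrays together, and the single arrays left out for listed genes, were chosen after seeing the data. Values are log2 differences.

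Fabp1 with fasting in LWT CTRL mice became called with normexp (-0.087), with only probes above background on all arrays (-0.090), with slide as a block (-0.091) and without LWT CTRL FED replicate 2 and LKO HFD FED replicate 3 (-0.10). In LWT HFD mice it lost its call with the processed signal (-0.042), median scaling (-0.013), no filter (-0.091), no batch correction (-0.089), batch as a block (-0.088), no weights (-0.095), only the groups compared (-0.092), the deposited values (-0.091) and without LKO CTRL FASTED replicates 5 and 6 (-0.092). Median scaling called Fabp1 for fasting in LKO CTRL (0.14) and for diet in LWT FED (-0.16) and LWT FASTED mice (-0.14), and the processed signal called it in LWT FED mice (-0.19). Both ended the HFD FASTED genotype call (-0.12 and -0.10).

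With only the groups compared, Fabp2 (-0.37) and Fabp4 (-0.48) with fasting in LWT HFD, Fabp4 with fasting in LKO HFD (-0.82) and in the HFD FED genotype comparison (0.50), and Fabp5 there (0.64) became called, as did the Fabp2 diet by fasting term in LWT mice (-0.50, adjusted p = 0.0493), while Fabp1 with diet in LKO FASTED (-0.19) and Fabp2 with genotype in CTRL FASTED (-0.61) lost the call, the latter also without weights (-0.45). The Fabp2 diet by fasting term in LKO mice lost it too (-1.05, adjusted p = 0.0517). Without LKO CTRL FASTED replicates 5 and 6, calls were gained for Fabp2 (-0.37) and Fabp4 (-0.48) with fasting in LWT HFD, Fabp4 with fasting in LKO HFD (-0.82), diet in LKO FASTED (1.34) and genotype in HFD FED (0.50). Fabp4 with fasting in LKO HFD was also called with only probes above background on all arrays (-0.82), with its other probe (-0.86) and without the other pair (-0.87). Fabp5 in HFD FASTED by genotype lost its call with no filter (0.79). A required fold over 1.5 removed the calls of Fabp1 (-0.092 and -0.23 with fasting in LWT HFD and LKO HFD, -0.19 with diet in LKO FASTED, -0.15 and -0.21 with genotype in CTRL FED and HFD FASTED, -0.25 for diet by fasting in LKO) and of Fabp2 with diet in LWT FED (0.54), and cut the probes called per comparison from 3082 to 10734 down to 520 to 1934.

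With 1 array left out at a time, values ranged over -0.10 to -0.077 (Fabp1, fasting, LWT CTRL), -0.11 to -0.079 (Fabp1, fasting, LWT HFD), -0.97 to -0.68 (Fabp4, fasting, LKO HFD), 0.60 to 1.07 (Fabp4, diet, LKO FASTED) and 0.73 to 0.93 (Fabp5, genotype, HFD FASTED), with changed calls in 1, 8, 3, 3 and 4 of 12 cases. The probes called in interactions fell by over 1.5 times in 5 of 6 cases each with no filter and no weights, in 4 with no batch correction, and, for genotype by diet in FED mice, from 830 to 542 with slide as a block and 434 with only the groups compared. Of the simple comparisons, diet in LWT FASTED fell from 4479 to 2984 with no weights, and diet in LKO FED and LKO FASTED from 3469 to 2257 and 3082 to 1991 with only the groups compared; the shares of all probes called fall with them.

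The replicate numbers did not pair the arrays: over 168 same-numbered pairs the median r of deviations was 0.01 (-0.35 to 0.34), and 39 exceeded 0.1. The replicate block changed 1 of 72 calls, the Fabp1 genotype by diet term in FASTED mice (-0.18, adjusted p = 0.0414, against -0.17 and 0.0505). That term was also called with normexp (adjusted p = 0.0242), with only probes above background on all arrays (adjusted p = 0.0381) and without LWT CTRL FED replicate 2 and LKO HFD FED replicate 3 (adjusted p = 0.0459). The Fabp4 diet by fasting term in LKO mice became called without weights (-1.55). The causes of these changes were not tested.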
